A study of Mus musculus with 37 samples.

Results

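The small noncoding RNA genes of the mouse lung described here are the small nucleolar RNA (snoRNA) genes, the small Cajal body RNA genes, the ribosomal RNA precursor gene Rn45s and the RNA genes of RNase P, RNase MRP and telomerase. They were chosen by name, as every row of the count table whose symbol begins with Snora, Snord or Scarna and the rows Rn45s, Rpph1, Rmrp and Terc, and by detection, as a count above 0 in at least 10 of 37 libraries. Of 123 rows with such names 105 met the detection minimum, out of 24421 genes in the table. They were 61 box C/D genes (Snord), 33 box H/ACA genes (Snora), 7 Cajal body genes (Scarna) and 4 others. The rule also names Rn7sk, which is not a row of the table. The rule used counts for detection only, so detection itself is not reported as a result. Scarna8 lay just inside the minimum, with a count above 0 in 10 libraries, and Snord110 and Scarna6 just outside it, with 8.

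Lung RNA was sequenced from 37 C57BL/6 mice, with 1 library each. Of these, 7 were mock exposed (0 Gy), 7 received silicon ions of 300 MeV/u, 7 a simplified 5-ion simulation of galactic cosmic radiation (GCR) and 5 gamma rays of caesium-137, in each case 0.75 Gy. A further 5 mock and 6 silicon mice had 12 mM of nicotinamide riboside (NR), a form of vitamin B3, in their drinking water and form the groups mock + NR and silicon + NR. The labels name 22 males and 15 females, with both sexes in each group. They state neither age nor the time from exposure to dissection, nor whether any group formed a batch, so a batch of GCR mice and the exposure cannot be told apart.

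Box C/D and box H/ACA snoRNAs are stable nuclear RNAs that guide enzymes to ribosomal RNA. Box C/D RNAs carry fibrillarin, which methylates the ribose, and box H/ACA RNAs carry dyskerin, which turns uridine into pseudouridine, and the Cajal body RNAs do the same for the small nuclear RNAs of the spliceosome. In mammals most of them are cut out of the introns of host genes, many of which code for ribosomal proteins or translation factors. Rpph1 is the RNA of RNase P, which trims the leaders of transfer RNA precursors, Rmrp is the RNA of RNase MRP, which cuts the ribosomal RNA precursor, and Terc is the template RNA of telomerase. None of these RNAs normally ends in a poly(A) tail, while the cDNA was made with a kit that primes on poly(A). The counts therefore need not follow the abundance of the mature RNAs.

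The genes on which the results turn are shown with their sequences, from GENCODE M21 transcripts on mm10 (GRCm38), 5′ to 3′ with T for U. The 5 box H/ACA genes are shown with the capitals marking the match to the H box motif ANANNA nearest the middle and, where present, an ACA within 10 bases of the end. Snora81 (chr16:23110756-23110933, plus strand, inside Eif4a2), Snora23 (chr7:110046364-110046547, plus, inside Ipo7), Snora30 (chr7:127527874-127528003, plus, inside Srcap), Snora16a (chr4:132309464-132309600, plus, inside Snhg12) and Snora28 (chr12:111540941-111541067, plus, inside Eif5) read:
Snora81: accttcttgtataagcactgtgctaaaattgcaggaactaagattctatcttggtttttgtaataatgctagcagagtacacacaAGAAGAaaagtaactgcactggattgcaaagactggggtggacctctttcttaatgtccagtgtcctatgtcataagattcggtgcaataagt
Snora23: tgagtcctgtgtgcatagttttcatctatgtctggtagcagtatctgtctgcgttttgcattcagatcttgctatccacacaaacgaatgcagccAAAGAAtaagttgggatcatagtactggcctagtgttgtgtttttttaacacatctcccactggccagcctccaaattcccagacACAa
Snora30: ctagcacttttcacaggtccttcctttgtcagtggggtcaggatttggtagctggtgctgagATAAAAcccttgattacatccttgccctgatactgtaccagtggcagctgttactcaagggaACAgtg
Snora16a: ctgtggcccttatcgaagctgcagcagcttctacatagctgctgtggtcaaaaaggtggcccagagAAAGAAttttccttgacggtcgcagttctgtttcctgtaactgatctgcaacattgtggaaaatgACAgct
Snora28: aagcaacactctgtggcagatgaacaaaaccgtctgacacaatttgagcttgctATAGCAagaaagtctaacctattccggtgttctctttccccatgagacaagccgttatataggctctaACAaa

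The 3 box C/D genes are shown with the capitals marking TGATGA, a form of the C box, and the last CTGA, the D box. They are Snord67 (chr2:91596070-91596180, plus strand, inside Ckap5), Snord49b (chr11:62603079-62603150, plus, inside 2410006H16Rik) and Snord96a (chr11:48802032-48802112, plus, inside Rack1), and read:
Snord67: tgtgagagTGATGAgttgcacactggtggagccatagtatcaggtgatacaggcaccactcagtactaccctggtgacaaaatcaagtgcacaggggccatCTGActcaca
Snord49b: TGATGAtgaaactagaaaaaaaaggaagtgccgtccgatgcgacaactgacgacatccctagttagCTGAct
Snord96a: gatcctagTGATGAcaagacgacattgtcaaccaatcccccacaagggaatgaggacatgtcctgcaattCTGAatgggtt

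Searched on the RNA strand only, TGATGA followed by CTGA stood in 39 of the 61 Snord genes (63.9%), against 73 of 98 annotated Snord transcripts (74.5%) and 0 of 42 Snora transcripts. ANANNA with a terminal ACA stood in 31 of the 33 Snora genes (93.9%), against 40 of 42 annotated Snora transcripts (95.2%) and 8.16% of Snord transcripts. The boxes thus went with the gene names. The annotated model of Snora81 has no ACA within that window of its end. The annotated lengths ran from 64 to 238 bases in box C/D genes (median 79), from 127 to 196 in box H/ACA genes (median 132) and from 70 to 414 in Cajal body genes (median 139). These are GENCODE lengths, and the RefSeq annotation gives another length for 94 of the genes. Of the 101 snoRNA and Cajal body genes 95 lay inside a longer gene on the same strand, here called the host, and in 74 of these 95 the host codes for protein. An exon of some annotated host transcript covered part of the gene in 45 cases. The libraries do not mark strand, and the sources used here do not say how reads matching more than 1 gene were counted. Reads of a snoRNA gene, of an overlapping exon on either strand and of near-identical copies therefore cannot be told apart.

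Apart from Rn45s these genes were scarce in the table. Rn45s had a median of 31835 counts per 1000000 counts of the library (CPM), from 10751 in gamma replicate 3 to 216521 in GCR replicate 2. The next highest medians were those of Snora81 (3.54 CPM), Snord104 (3.49), Rpph1 (2.78), Snora28 (2.70) and Snord96a (1.31). Per kilobase of annotated length Snord104 came first (49.8 CPM per kb), before Snora28 (21.2), Snora81 (19.9), Snord96a (16.2) and Rpph1 (8.73), with Rn45s left out for want of an annotated length. This order depends on the annotated lengths and need not follow the abundance of the mature RNAs. Rmrp stood at 1.84 and Terc, the telomerase template, at 0.166 CPM per kb. Summed over the 101 snoRNA and Cajal body genes, the level was 25.2 ± 3.72 CPM in mock (SD, n = 7) and 82.2 ± 71.2 CPM in GCR (SD, n = 7). It was 31.5 ± 11.1 CPM in silicon (SD, n = 7), 28.7 ± 6.23 CPM in gamma (SD, n = 5), 35.7 ± 8.48 CPM in mock + NR (SD, n = 5) and 34.3 ± 7.98 CPM in silicon + NR (SD, n = 6). The GCR group held 3 libraries at 92.7 to 198 CPM and 4 at 25.7 to 38.6 CPM.

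Total counts ran from 9485197 to 66381526 per library, with a median of 28476462. Between 64 and 102 of the 105 genes had a count above 0, the fewest in the shallowest library and the most in the deepest. GCR replicate 1, with a total of 26586165, had only 65 of them above 0. Over the whole table it had 16168 genes above 0, the fewest of the 37 libraries. The lung markers Sftpc, Scgb1a1, Ager and Cldn5 were above 0 in every library, and their summed level ran from 30979 to 308289 CPM. In 4 libraries Rn45s exceeded 100000 CPM, namely GCR replicates 2, 5 and 6 and mock replicate 4, and these had the 4 smallest totals (at most 18232729). They are called high-Rn45s libraries below, are never compared as a group, and each comparison is given with and without them. In 13 libraries Acta1, the actin of skeletal muscle, exceeded 1000 CPM, 4 of 7 mock, 2 of 5 mock + NR, 5 of 7 silicon, 2 of 6 silicon + NR and 0 of the GCR and gamma libraries. The 5 skeletal muscle markers, none of them at 0 in any library, summed to 17.8 to 33759 CPM in mock and to 30.3 to 82.6 CPM in GCR. The library labelled female gamma replicate 5 went against its label, with Xist at 3.73 CPM and Ddx3y, a gene of the Y chromosome, at 87.6 CPM.

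**Figure D1:**
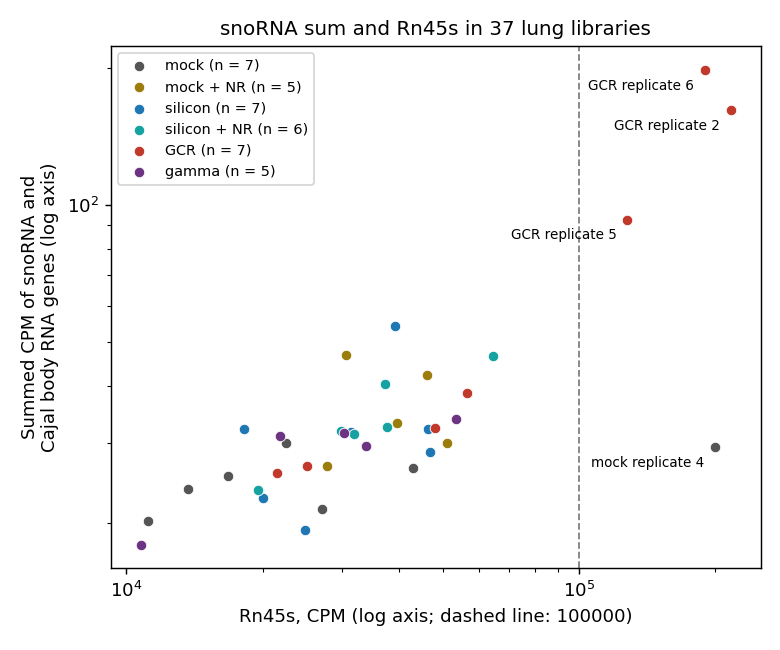
Summed CPM of 101 snoRNA and Cajal body genes against Rn45s CPM in each of 37 libraries, both on log axes, coloured by group. GCR replicates 2, 5 and 6 lie at the upper right with sums of 162, 92.7 and 198 CPM, while mock replicate 4, with a similar Rn45s level, lies at 29.3 CPM.

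The first comparison sets the lung after the 5-ion mixture against mock. The counts of a group of snoRNA genes and of both RNase RNAs were higher in GCR than in mock, by 1.41 to 6.20 on the log2 scale, and those of Snord96a were lower. Of 37 genes that passed the low-count filter 12 were called higher and 1 lower (edgeR's quasi-likelihood test, Benjamini-Hochberg adjusted p under 0.05 over all 16977 genes tested). Over all genes tested 8.03% were called higher and 8.52% lower. A scarce gene can pass the filter through the group in which it is high, so these counts describe the tested genes and not all 105. The other 68 genes (45 box C/D, 18 box H/ACA, 4 Cajal body and Terc) had a median of at most 0.247 CPM, and none exceeded 2.74 CPM in any library. Without the filter all 105 were fitted, and 18 were called higher and 1 lower, beside 6.21% and 6.65% of the 19830 genes fitted. The 6 calls this added, named after their values were seen, were Snora36b at 5.76, Snord82 at 4.49, Snora21 at 3.14, Snord68 and Snora15 at 2.62 and Snord15b at 2.38. In bulk RNA, fewer cells of a type and less RNA per cell cannot be told apart.

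Snora81, the box H/ACA gene with the highest median CPM, had 0.470 to 2.14 CPM in mock, with a median of 0.842. The 7 GCR libraries had 6.47, 72.2, 7.27, 2.65, 28.2, 53.1 and 1.83 CPM in replicates 1 to 7. The 3 highest were the high-Rn45s libraries, and the lowest GCR library lay inside the mock range, below mock replicate 4. The fitted difference was 5.03 on the log2 scale (SE 0.88, edgeR adjusted p = 0.00301).

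Snora23 had 0.0568 to 0.336 CPM in mock (median 0.134) and 2.56, 15.1, 1.26, 0.407, 9.95, 33.2 and 0.133 CPM in GCR replicates 1 to 7. It was called higher by 6.13 (SE 0.97, edgeR adjusted p = 0.00112). In all but 1 GCR library its level was above every mock library. Snora30 had 0.114 to 0.439 CPM in mock (median 0.219) and 2.33, 9.35, 0.773, 0.256, 5.13, 12.4 and 0.732 CPM in GCR. It had the smallest adjusted p of these genes, with a difference of 4.65 (SE 0.66, edgeR adjusted p = 6.81e-04). Only replicate 4, the most deeply sequenced library, lay within the mock range. Snora16a had 0.0731 to 1.21 CPM in mock, its highest in mock replicate 4, and 0.865, 15.9, 1.33, 0.648, 6.57, 16.4 and 0.233 CPM in GCR. It was higher by 4.99 (SE 1.01, edgeR adjusted p = 0.00631), and 3 GCR libraries lay below mock replicate 4.

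Among box C/D genes Snord67 stood apart. It was at 0 in mock replicates 1 and 5, where a count of 0 allows up to 0.0852 and 0.11 CPM (3 counts, counting error only), and reached at most 0.274 CPM in mock. The GCR libraries had 2.71, 11.5, 1.33, 0.377, 9.53, 25.4 and 0.433 CPM. This was the only one of the 37 tested genes whose GCR libraries all lay above all mock libraries, and over all genes 0.306% did so. The difference was 6.20 (SE 0.99, edgeR adjusted p = 0.00113). Snord49b had at most 0.202 CPM in mock and 1.51 to 4.32 CPM in the 3 high-Rn45s GCR libraries, against 0.166 to 0.339 CPM in the other 4. It was higher by 4.06 (SE 0.77, edgeR adjusted p = 0.00493), and without those 3 libraries it ran no higher than 0.339 CPM in GCR. Snord17 showed the same split, with 3.50 to 5.48 CPM in the high-Rn45s GCR libraries, 0.233 to 0.843 CPM in the other GCR libraries and 0.199 to 0.823 CPM in mock. It was higher by 2.60 (SE 0.60, edgeR adjusted p = 0.00924). Snord100 was called higher by 1.41 (SE 0.44), with 0.113 to 1.16 CPM in GCR and 0.168 to 0.439 CPM in mock, ranges that overlapped. The Cajal body genes Scarna2 and Scarna17 were called higher by 3.12 (SE 0.80) and 1.74 (SE 0.57). Scarna2, a guide for the U2 small nuclear RNA, had 0.949 to 1.89 CPM in the high-Rn45s GCR libraries and at most 0.639 in the 33 others.

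The RNA of RNase P moved with them. Rpph1 (chr14:50807449-50807767, minus strand, 319 bases) had 0.475 to 5.87 CPM in mock, with mock replicate 4 highest and a median of 1.13. In GCR it had 13.7, 54.6, 5.51, 1.70, 28.6, 62.2 and 2.56 CPM, and was called higher by 4.23 (SE 0.77, edgeR adjusted p = 0.00403). Except for mock replicate 4, no mock library exceeded 1.61 CPM, and every GCR library lay above that. In the annotation an exon of Ccnb1ip1 overlaps Rpph1. Rmrp (chr4:43492783-43493063, minus strand, 281 bases, overlapping an exon of Ccdc107) had 0.219 to 2.58 CPM in mock and 3.54, 9.06, 1.51, 0.362, 5.37, 15.7 and 0.699 CPM in GCR. It was called higher by 3.44 (SE 0.78, edgeR adjusted p = 0.00887). Here the groups overlapped, since 3 GCR libraries lay below mock replicate 4.

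Rn45s itself was not called. It had 11174 to 42989 CPM in 6 mock libraries and 200006 in mock replicate 4, against 48066, 216521, 56402, 25011, 127726, 189818 and 21561 CPM in GCR. The difference was 1.36 (SE 0.67, edgeR adjusted p = 0.148). Without mock replicate 4 it was 2.52 (SE 0.59, edgeR adjusted p = 0.00575, range over 48 alternatives 0.00575 to 0.755), so that library decided the call. Terc (chr3:96414437-96414859, minus strand) was below the filter, with 0 to 0.101 CPM in mock and 0 to 0.241 CPM in GCR, where 3 of the 7 libraries had no count. No difference in Terc was detectable at this depth.

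**Figure D2:**
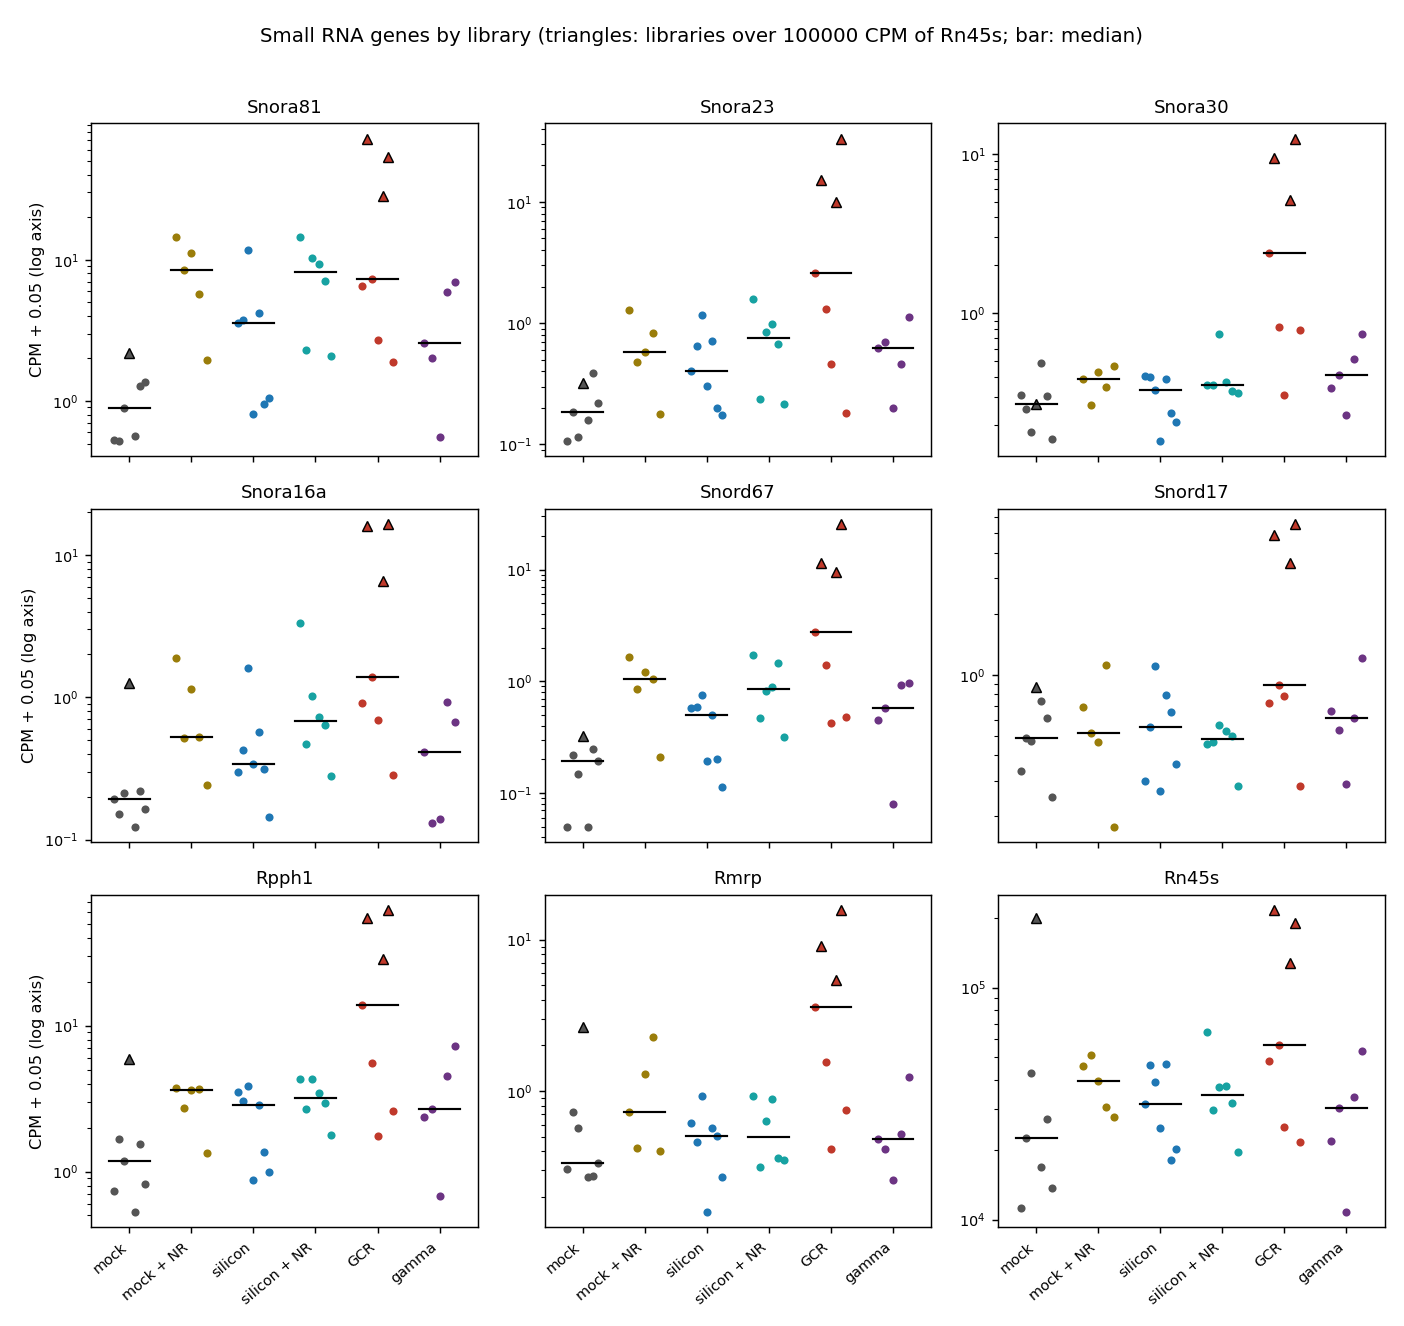
CPM + 0.05 on log axes for 9 small RNA genes in each library, by group, with the bar at the group median and triangles for the 4 libraries over 100000 CPM of Rn45s. In GCR the triangles are the top 3 points of every panel (for Snora81 28.2 to 72.2 CPM), in the Rn45s panel by their definition. The triangle of mock lies at 2.14 CPM of Snora81, 0.219 CPM of Snora30 and 5.87 CPM of Rpph1.

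Not every abundant gene was higher. Snord96a had 1.04 to 2.30 CPM in mock (median 1.53) and 0.263, 0.172, 0.843, 1.02, 0.181, 0 and 0.965 CPM in GCR replicates 1 to 7. The count of 0 in replicate 6 allows up to 0.316 CPM. All GCR libraries lay below all mock libraries, as they did for 0.348% of all genes tested, and the difference was -1.47 (SE 0.36, edgeR adjusted p = 0.0109). Snora28 had 0.878 to 3.29 CPM in mock and 0.0752 to 3.36 CPM in GCR, with the 3 high-Rn45s libraries at 0.631 to 1.02 CPM and replicate 1, not one of them, lowest. Its difference of -0.68 (SE 0.35, edgeR adjusted p = 0.163) did not pass. In mock the lowest Snora28 library was the high-Rn45s one, replicate 4. Snord104, Snora31, Snora65, Snord72 and Snord118 differed by 0.56, 0.20, 0.16, 0.44 and 0.59 (edgeR adjusted p from 0.174 to 0.833), and their groups overlapped. Snord118 is the U8 RNA, needed for the large ribosomal subunit, and had 0.453 to 1.10 CPM in mock and 0.633 to 1.44 CPM in GCR.

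**Figure D3:**
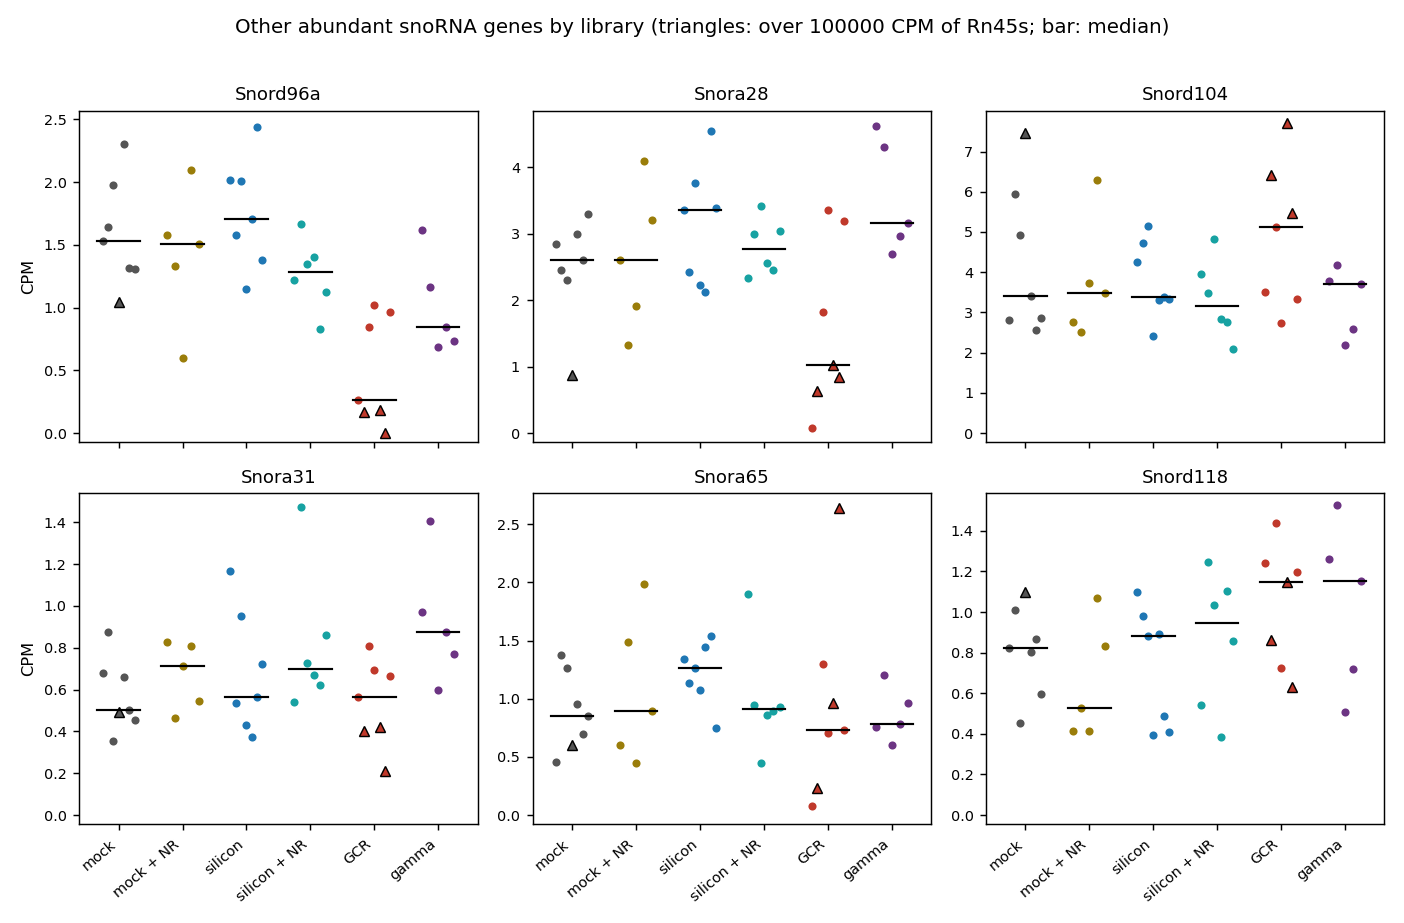
CPM of 6 other abundant snoRNA genes in each library by group, on linear axes, with the bar at the group median and triangles for the 4 libraries over 100000 CPM of Rn45s. Snord96a lies between 0 and 1.02 CPM in GCR and between 1.04 and 2.30 CPM in mock, and the other 5 genes overlap between those groups.

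The 4 high-Rn45s libraries were not alike in these genes. Leaving out Rn45s, by which the 4 were chosen, each of the 3 GCR libraries exceeded all 33 libraries outside the 4 in 10 of the 36 other tested genes, beside 1.61% of all genes. The 36 passed the filter with the 4 libraries included, which a scarce gene can do through the libraries in which it is high. Snord49b, among the 10, was not tested without the 4 libraries, so the 10 describe the tested genes only. In all 10 genes mock replicate 4 did not exceed the highest of the 33. Among the 37 libraries it ranked 5 in Rmrp, 6 in Rpph1 and 8 in Snora16a and Snord17, but 29 in Snora30 and Snord49b. The 10 were picked by the GCR libraries, and the share for mock replicate 4 over all genes is not given. At 200006 CPM of Rn45s, mock replicate 4 had 2.14 CPM of Snora81, 0.219 of Snora30, 0.274 of Snora23 and 0.274 of Snord67. At 127726 CPM, GCR replicate 5 had 28.2, 5.13, 9.95 and 9.53 CPM of the same genes. The contrast between the 3 GCR libraries and mock replicate 4 in these genes is therefore a description only. Within mock, replicate 4 was still the highest library for Snora81, Rpph1 (5.87 CPM), Rmrp (2.58), Snora16a (1.21), Snord17 (0.823) and Snord100 (0.439). It was not the highest mock library for Snora23, Snora30 or Snord49b. The part of Rn45s content and of depth in the GCR differences was not tested. Mock replicate 4 also held 3409 CPM of Acta1 against 13.4 to 48.5 CPM in the 3 GCR libraries. GCR replicate 1, at 48066 CPM of Rn45s, was next in order for Snora30, Snora23, Snord67, Rpph1 and Rmrp.

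Without the 4 libraries, 4 GCR and 6 mock libraries remained, and none of the 37 genes tested there was called, like none of all 17084 genes (0%). At an unadjusted p under 0.05 there were 9 of the 37 members and 2748 of all genes. The differences of the leading genes kept their sign, with Snord67 at 3.62 (SE 0.87, edgeR adjusted p = 0.191), Snora23 at 2.84 (SE 0.78), Rpph1 at 2.66 (SE 0.59), Snora16a at 2.61 (SE 0.77), Snora81 at 2.49 (SE 0.75), Snora30 at 2.36 (SE 0.51), Rmrp at 2.25 (SE 0.60) and Snord96a at -1.03 (SE 0.29). The adjusted p of these 8 genes ran from 0.151 to 0.242. In CPM the groups then did not overlap for 4 of the 37, Rpph1, Snora16a, Snora81 and Snord67, all higher in GCR, beside 0.896% of all genes. For Snord96a, lower in GCR, they did not overlap either, beside 1.11%. Snora81 then had 0.470 to 1.31 CPM in 6 mock libraries and 1.83 to 7.27 CPM in 4 GCR libraries. Snord17 fell back to a difference of 0.64 (SE 0.49, edgeR adjusted p = 0.511), and Snord47, picked out after its values were seen, went from 1.37 to -0.0043. With all libraries kept, Snord67 was the only one of the 4 genes above whose groups did not overlap. In Rpph1, Snora16a and Snora81 the highest mock library was the one left out, mock replicate 4, at 5.87, 1.21 and 2.14 CPM.

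The 13 libraries rich in muscle include mock replicate 4, at 3409 CPM of Acta1, but none of the 3 high-Rn45s GCR libraries. Leaving them out thus kept high-Rn45s libraries in GCR alone, and without either kind of library none of these genes was called. Without the 13, which left 3 mock libraries, the differences of the leading genes were as large and none passed. Snord67 stood at 6.36 (SE 1.49), Snora23 at 6.48 (SE 1.57), Snora81 at 5.49 (SE 1.35) and Rpph1 at 4.95 (SE 1.18), each with edgeR adjusted p = 0.160. No gene of the 17142 tested was called there, and 19 of 51 members and 3235 of all genes had an unadjusted p under 0.05.

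**Figure D4:**
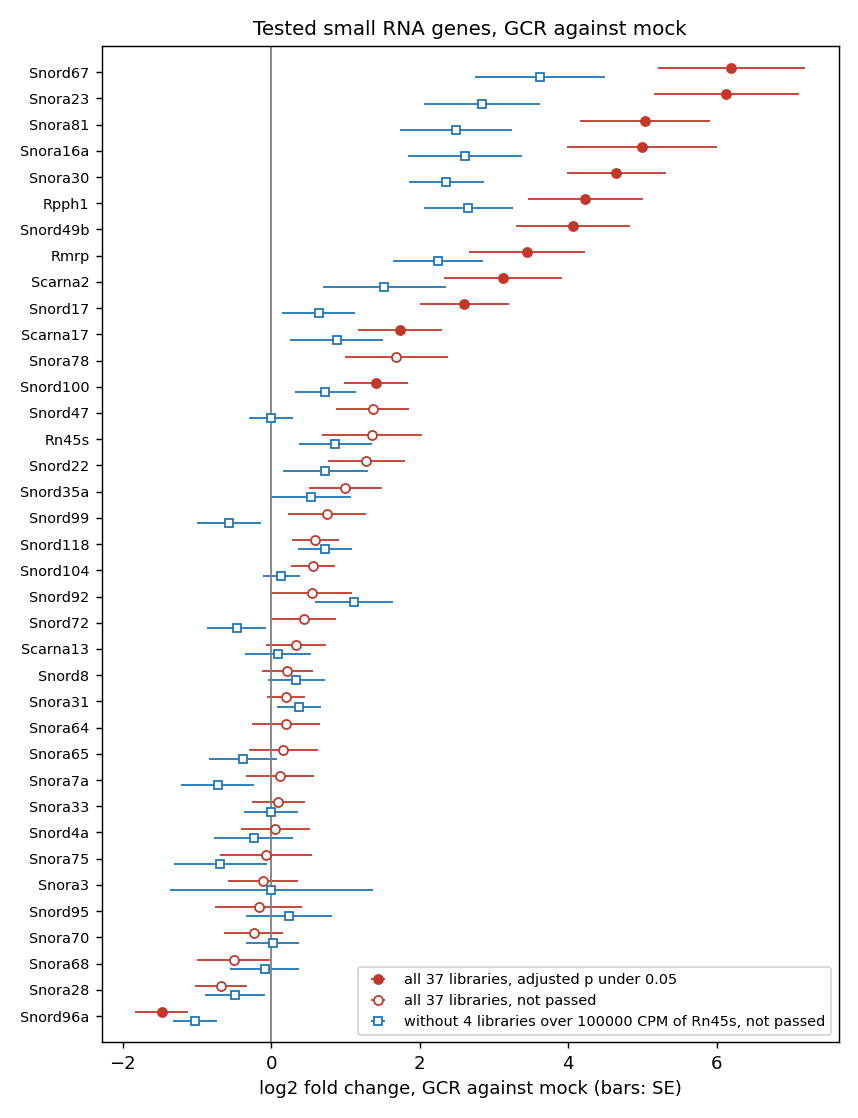
Log2 fold change of GCR against mock with its SE for the 37 tested genes, from all 37 libraries (circles, filled where the adjusted p is under 0.05) and without the 4 high-Rn45s libraries (squares, absent for 3 genes that were then not tested). The 12 genes called higher lie at 1.41 to 6.20 with all libraries, and no square passes the test.

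The hosts of the leading snoRNA genes did not rise with them. Eif4a2, a translation initiation helicase and the host of Snora81, differed by -0.25 (SE 0.16, edgeR adjusted p = 0.246) between GCR and mock, while Snora81 differed by 5.03. Ckap5, a microtubule polymerase and the host of Snord67, differed by -0.08 (SE 0.15, edgeR adjusted p = 0.725), and Srcap, a chromatin remodeller and the host of Snora30, by -0.11 (SE 0.11, edgeR adjusted p = 0.480). Ipo7, a nuclear import receptor and the host of Snora23, fell by 0.78 on the log2 scale (SE 0.25, edgeR adjusted p = 0.0337). Of the 8 snoRNA genes called higher whose host was tested, 2 had a host called higher and 1 a host called lower. The hosts called higher were 2410006H16Rik, host of Snord49b, at 0.85 (SE 0.26) and Rps12, host of Snord100, at 1.67 (SE 0.38). Snx5, host of Snord17, Eif5, host of Snora28, Tpt1, host of Snora31, Rpl37, host of Snord72, and Rpl12, host of Snora65, differed by -0.22, -0.19, 0.56, 0.74 and 0.80, and none of these passed (edgeR adjusted p from 0.0744 to 0.197).

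Snord96a went against its host. Rack1, a scaffold protein of the ribosome listed as Gnb2l1 in the table, rose by 1.22 (SE 0.29, edgeR adjusted p = 0.00973) where Snord96a fell. Snord95, which lies in the same gene and is named here for that, differed by -0.17 (SE 0.59, edgeR adjusted p = 0.867), and was at 0 CPM in the 3 high-Rn45s GCR libraries. Snhg12, a noncoding host, carries Snora16a and Snord99 and differed by 0.67 (SE 0.33, edgeR adjusted p = 0.140). Its 2 snoRNA genes differed by 4.99 (Snora16a) and 0.75 (Snord99, SE 0.53, edgeR adjusted p = 0.320), a gap whose own difference was not tested.

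By host kind, box type, length and exon overlap, given as a description with no test, the calls fell as follows. Each count is of genes that passed the filter, to be read beside the 8.03% of all genes called higher. Of 11 in hosts that code for ribosomal proteins 1 was called higher, of 19 in other hosts 7, and of 6 without a host 4. The 4 were the RNase RNAs Rpph1 and Rmrp and the Cajal body genes Scarna2 and Scarna17. Rps12, the host of Snora33 and Snord100, rose by 1.67 (SE 0.38, edgeR adjusted p = 0.00895), while Snora33 differed by 0.10 (SE 0.36, edgeR adjusted p = 0.877). By box type, 4 of 15 box H/ACA, 4 of 16 box C/D and 2 of 3 Cajal body genes were called higher. The genes called higher had a median annotated length of 157.5 bases (72 to 414, n = 12) against 127.5 bases (68 to 275, n = 24) for the other tested genes, and a GC content of 50.25% against 48.35%. These lengths hold for GENCODE only, since the longest, Scarna2, has 61 bases in RefSeq. Outside the box C/D and box H/ACA genes, the genes called higher were Scarna2 (414 bases), Rpph1 (319), Rmrp (281) and Scarna17 (79), so length and kind of RNA are mixed here. Among tested genes overlapped by a host exon 4 of 18 were called higher, and among those inside a host without such overlap 4 of 12.

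**Figure D5:**
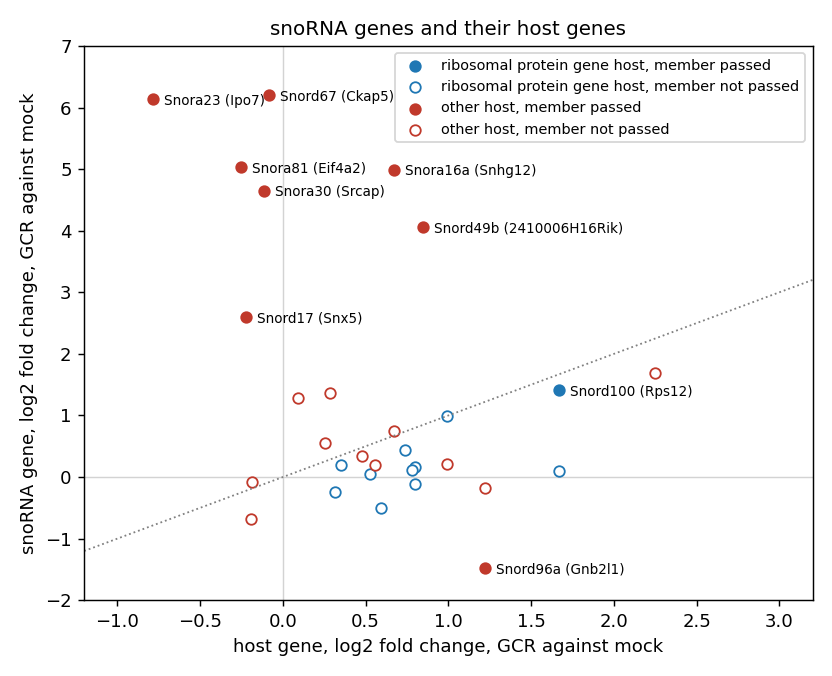
Log2 fold change of GCR against mock for 30 tested snoRNA genes (vertical axis) and for their host genes (horizontal axis), blue for hosts that code for ribosomal proteins and red for others, filled where the snoRNA gene has an adjusted p under 0.05, with a dotted line where both are equal. Labels name the snoRNA genes that passed and their hosts, and Snord67, Snora23, Snora81 and Snora30 lie at 4.65 to 6.20 above hosts between -0.78 and -0.08, with Snord96a lowest at -1.47.

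The NR comparison sets unirradiated mice with and without the vitamin side by side. Snora81 had 14.5, 8.47, 11.1, 5.71 and 1.89 CPM in mock + NR replicates 1 to 5, against at most 2.14 CPM in mock, and Snord67 had 1.58, 0.803, 1.16, 0.994 and 0.160 CPM against at most 0.274. In both genes 4 of the 5 mock + NR libraries lay above all 7 mock libraries and replicate 5 did not. None of the 37 tested genes was called by edgeR, beside 0% of all 16977 genes in each direction, although 4 members and 2875 genes had an unadjusted p under 0.05. Snora81 differed by 3.0 (SE 0.86, edgeR adjusted p = 0.102) and Snord67 by 3.02 (SE 0.96, edgeR adjusted p = 0.112). DESeq2 called both, with adjusted p = 0.0166 and 0.0314, and limma voom called Snora81, with adjusted p = 0.0265. The share of all genes that DESeq2 and voom called is not given here, so these calls are not read as particular to these genes. Over 48 alternatives the adjusted p of Snora81 ran from 0.0166 to 0.358 and its difference from 2.75 to 4.23. Snora23 differed by 1.94 (SE 0.94) and Scarna13 by 0.94 (SE 0.41), with edgeR adjusted p = 0.286 and 0.220. Without the high-Rn45s libraries, which takes mock replicate 4 from this comparison, 0% of all genes and none of the members were called, and Snora81 stood at 3.28 (SE 0.76) and Snord67 at 3.11 (SE 0.86), both with edgeR adjusted p = 0.161. Snora16a then went from 1.53 to 2.58 (SE 0.76, edgeR adjusted p = 0.162). In all, 6 members and 2750 genes then had an unadjusted p under 0.05. The hosts Eif4a2 and Ckap5 differed by 0.02 (SE 0.17) and -0.18 (SE 0.16). Mock + NR held no high-Rn45s library, with 27738 to 51105 CPM of Rn45s against 11174 to 42989 CPM in the mock libraries other than replicate 4.

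In silicon against mock none of the 37 tested genes was called (0% of all genes), with 1 member and 2185 genes at an unadjusted p under 0.05. Snora81 had 0.755 to 11.6 CPM in silicon with a median of 3.54 and differed by 1.79 (SE 0.78, edgeR adjusted p = 0.299). Silicon replicate 3, which also had the highest Ccl19 level, a chemokine of lymphoid tissue, was the one at 11.6 CPM, and the others had at most 4.16. Snord49b, Snord67 and Snora23 differed by 1.29, 1.57 and 1.5 (SE 0.74, 0.90 and 0.87). Without the high-Rn45s libraries none was called either (0% of all genes), with 5 members and 1924 genes at an unadjusted p under 0.05, and Snora81 stood at 2.08 (SE 0.68, edgeR adjusted p = 0.249). Snora16a then went from 0.86 to 1.92 (SE 0.71) and Rpph1 from 0.42 to 1.23 (SE 0.52), with edgeR adjusted p = 0.294 and 0.358.

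In gamma against mock none was called either, beside 5 genes higher (0.0295%) and 0% lower, with 3 members and 1701 genes at an unadjusted p under 0.05. Snora81 had 2.52, 1.97, 0.510, 5.85 and 6.89 CPM in gamma and differed by 2.04 (SE 0.85, edgeR adjusted p = 0.402). Snord67 differed by 2.15 (SE 0.96) and Snora31 by 0.74 (SE 0.27, edgeR adjusted p = 0.325). Without the high-Rn45s libraries none was called, beside 0.0234% of all genes higher and 0% lower, and 7 members and 1578 genes had an unadjusted p under 0.05. Rpph1, the RNase P RNA, then stood at 2.01 (SE 0.57), Snora81 at 2.35 (SE 0.72) and Snord67 at 2.56 (SE 0.83), each with edgeR adjusted p = 0.349. The GCR, silicon, gamma and NR comparisons share the same 7 mock mice, so these values are not separate evidence of one another.

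With NR, silicon against mock + NR gave no call (0% of all genes), with 0 members and 367 genes at an unadjusted p under 0.05. Snora81 had 2.02 to 14.5 CPM in silicon + NR. The 4 of smallest p were Snord100 at 0.61, Snord118 at 0.42, Snord22 at 0.63 and Rmrp at -0.80, whose SE was 0.80. Silicon + NR against silicon and the interaction of silicon with NR gave no call either (0% of all genes in each), with 0 members at an unadjusted p under 0.05 and with 2171 and 1689 genes. In silicon + NR against silicon Snord67 differed by 1.34 (SE 0.83, edgeR adjusted p = 0.517) and Snora81 by 1.11. The interaction of Snora81 was -1.89 (SE 1.14, edgeR adjusted p = 0.694). None of these 3 gave a call without the high-Rn45s libraries (0% of all genes in each), where 0, 0 and 1 members had an unadjusted p under 0.05, and the interaction of Snora81 was -2.17 (SE 0.96, edgeR adjusted p = 0.425).

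Radiation types were compared directly. Between GCR and silicon 12 of the 37 genes were called higher in GCR, Rn45s among them, and 2 lower, beside 14.1% and 21.2% of all genes. The leading differences were Snord67 at 4.63 (SE 0.90), Snora23 at 4.63 (SE 0.89), Snora30 at 4.45 (SE 0.65), Snora16a at 4.13 (SE 0.94), Rmrp at 3.94 (SE 0.77), Rpph1 at 3.81 (SE 0.74) and Snord17 at 2.47 (SE 0.59), with edgeR adjusted p from 0.00117 to 0.00376. Snord96a stood at -1.71 (SE 0.35, edgeR adjusted p = 0.00209) and Snora28 at -0.99 (SE 0.34, edgeR adjusted p = 0.0249). Snora28 had 2.12 to 4.55 CPM in silicon. Between GCR and gamma 10 were called higher and none lower, beside 2.66% and 3.04% of all genes. Snora23 led with 4.33 (SE 1.01), before Snora16a at 4.11 (SE 1.09), Snord67 at 4.04 (SE 0.99), Snora30 at 3.80 (SE 0.72), Rmrp at 3.56 (SE 0.87), Snord49b at 3.24 (SE 0.82), Rpph1 at 3.06 (SE 0.82) and Snord17 at 2.22 (SE 0.66), with edgeR adjusted p from 0.0232 to 0.0444. Without the high-Rn45s libraries no gene was called in either comparison (0% of all genes), and in both 37 of these genes were tested. Leaving out GCR replicate 1 alone ended all 10 calls between GCR and gamma. Silicon and gamma did not differ by a call in any of the 37 genes, beside 0.0589% of all genes higher in silicon and 0.188% lower, with 1 member and 3333 genes at an unadjusted p under 0.05. Snord96a was nearest, at 0.88 (SE 0.38, edgeR adjusted p = 0.185), before Snord22 at 1.15, Snora7a at 0.86 and Snora64 at 0.74. With the high-Rn45s libraries left out it stood at 0.86 (SE 0.26, edgeR adjusted p = 0.0928), and again no member was called, beside 0.0702% of all genes higher and 0.222% lower.

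Between females and males none was called (0.0295% of all genes in each direction). In females 32 of the 37 were lower, with a median of -0.38 against 0.00 over all genes, of which 48.9% were higher in females. Without the 13 libraries rich in muscle, 30 of 51 members were lower, with a median of -0.04, and none was called. The nearest were Snora31 at -0.46 (SE 0.16), Snord104 at -0.50 (SE 0.19), Snora33 at -0.55 (SE 0.23) and Snord22 at -0.81 (SE 0.35), with edgeR adjusted p = 1.00. Snord22 is the U22 RNA, needed for the small ribosomal subunit. In all, 4 members and 534 genes had an unadjusted p under 0.05. Among the females counted here is gamma replicate 5, whose Xist and Ddx3y levels went against its label. Without it none of the members was called, and these 4 genes stood at -0.48, -0.57, -0.57 and -1.01. Without the high-Rn45s libraries 34 of 37 members were lower in females, with a median of -0.38. None was called there either, beside 0.0293% of all genes higher and 0.0234% lower, with 6 members and 737 genes at an unadjusted p under 0.05.

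The proteins that work with these RNAs are given by list, to be read beside the 8.03% of all genes called higher and the 8.52% called lower in GCR against mock. Of 10 measured proteins of box C/D particles and their assembly none was called higher in GCR than in mock and 2 lower, Nop56, a core protein, at -0.77 (SE 0.18) and the assembly factor Znhit3 at -0.67 (SE 0.18). Of 6 for box H/ACA, the assembly factor Naf1 rose by 1.28 (SE 0.30) and dyskerin, Dkc1, stood at -0.63 (SE 0.19). Of 11 proteins of RNase P and RNase MRP 2 were higher and 3 lower, with Rpp40 at -1.38 (SE 0.30), Pop7 at 0.69 (SE 0.16) and Rpp30 at -0.64 (SE 0.17), while both of their RNAs were higher. Of 10 Cajal body and telomerase partners 1 was called, Gemin2, lower at -0.51 (SE 0.17), and of 7 genes around the 7SK RNA Mepce and Hexim1 rose by 0.75 and 0.60 (SE 0.18 and 0.17). Next by p in these lists, and short of the threshold, came Znhit6 at -0.29, Nhp2 at 0.46, Smn1 at 0.36, Gemin5 at -0.37 and Ccnt2 at -0.26.

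Among genes that process ribosomal RNA and trim snoRNAs, those called were lower in GCR, where 8.52% of all genes were called lower. Of 20 ribosomal RNA processing genes 0 were higher and 5 lower, such as Ebna1bp2 at -0.52 (SE 0.12), Bop1 at -0.83 (SE 0.23) and Nop16 at -0.49 (SE 0.14). Of 14 genes of the RNA exosome, which trims the ends of snoRNAs and degrades nuclear RNA, 0 were higher and 5 lower, such as Exosc4 at -0.51 (SE 0.13), Exosc10 at -0.69 (SE 0.19) and C1d at -0.46 (SE 0.13). Of 16 genes of RNA polymerase I, which makes Rn45s, 2 were higher and 2 lower, with Polr1c at 0.75 (SE 0.16), Znrd1 at 0.65 (SE 0.17) and Taf1c at -0.98 (SE 0.30). The medians of these 3 lists were -0.19, -0.22 and 0.00, beside -0.06 over all genes. Of 16 noncoding host genes Snhg9 and Snhg8 rose by 2.25 and 1.04 (SE 0.44 and 0.31). All values named as called in these lists have an edgeR adjusted p from 0.00584 to 0.0357 with all libraries, and none of these genes was called without the high-Rn45s libraries.

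Other small RNA genes, chosen by symbols that begin with Rnu, Rny, Vaultrc or Mir and by the same detection minimum, were compared as the genes most like these. Of 328 such genes 64 were tested, of which 8 were higher in GCR than in mock and 1 lower (8.03% and 8.52% over all genes), with a median of -0.10, beside 12 and 1 of 37 and a median of 0.59 in the genes described here. Mir6516 rose by 2.64 (SE 0.50), Mir703 by 1.47 (SE 0.40) and Mir682 by 1.30 (SE 0.30), with edgeR adjusted p from 0.00493 to 0.0180. Without the high-Rn45s libraries 0 of 67 were called.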

How the data were processed

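RNA of mouse lung was measured in 37 libraries of 1 mouse each. Per the labels' protocols, Trizol extraction was followed by SMART-seq v4 cDNA synthesis and Nextera XT library preparation, which marks no strand. The submitters' processing notes name STAR 2.5.2, HTSeq 0.13.5, Trimmomatic 0.36, MultiQC 1.12, FastQC 0.11.4 and the build mm10, without their roles. The authors deposited raw whole-number counts for each gene symbol, and their annotation and settings are not stated in the sources used here.

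The genes and lists were chosen with earlier results of these data known. CPM was computed from deposited counts and library totals, without molecular identifiers, so limits from a count of 0 (3 counts) cover counting error only. Differences were fitted over all 37 libraries with edgeR 4.0.16 (R 4.3.3): TMM, filterByExpr, 6 groups and sex, quasi-likelihood test, Benjamini-Hochberg adjustment over all 16977 genes, called under 0.05. SE is the fold change over the root of F. DESeq2 1.42.0, limma 3.58.1 (voom with quality weights), other scalings, no filter, only the groups compared, and left-out libraries were the alternatives. The method was tested on simulated data. Within groups, 98 library pairs differed by a chi-square per degree of freedom of 19.2 to 1003, so none was a copy. Named were Snora81 and the genes outside the snoRNA families, the 10 genes of highest median, in each comparison the 8 called of smallest p (with fewer than 5 called, also the 4 of smallest p), each list's 3 genes of smallest p and the hosts of named genes. Positions and sequences are from GENCODE M21 on GRCm38 (104 of 105 genes matched), and a host is a gene that spans a snoRNA gene on its strand (95 of 101 genes, 70 distinct hosts).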

Additional observations from a re-analysis of the deposited data

Results flagged for a closer look

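In 18 of 150 tests over groups of 5 to 7 libraries, 1 library stood far from the others of its group. Chance gives about 1 in 20 only for independent, normally distributed values. CPM values of genes in the same libraries need be neither, so the 18 are not read against that rate. No GCR library was flagged, and a search for 1 library apart can miss a group with several high libraries. In mock, replicate 4 was the highest for Rn45s (200006 CPM), Rpph1 (5.87 CPM), Rmrp (2.58 CPM) and Snora16a (1.21 CPM) and the lowest for Snora28 (0.878 CPM). In silicon, replicate 3 was the highest for Snora81 (11.6 CPM), Snora16a (1.55 CPM), Terc (0.352 CPM) and the summed snoRNA level (54.0 CPM), and replicate 7 was the lowest for Snord72 (0.188 CPM). In silicon + NR, replicate 1 was the highest for Snora16a (3.29 CPM), Snora65 (1.90 CPM) and Snord100 (0.746 CPM), replicate 2 for Scarna13 (1.25 CPM) and Snora31 (1.47 CPM), and replicate 3 for Snora30 (0.691 CPM). In gamma, replicate 5 was the highest for Rmrp (1.19 CPM) and replicate 3 the lowest for the summed snoRNA level (17.9 CPM). Silicon replicate 3 also had the most Ccl19, at 447 CPM, and mock replicate 4 is one of the 4 libraries over 100000 CPM of Rn45s.

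GCR differed from silicon and from gamma by the direct edgeR test. Between GCR and silicon the log2 differences were 4.45 for Snora30, 4.63 for Snora23, 4.63 for Snord67, 3.81 for Rpph1, 3.94 for Rmrp, 4.13 for Snora16a, 2.47 for Snord17 and -1.71 for Snord96a. Between GCR and gamma they were 3.80 for Snora30, 4.33 for Snora23, 3.56 for Rmrp, 4.04 for Snord67, 3.24 for Snord49b, 4.11 for Snora16a, 3.06 for Rpph1 and 2.22 for Snord17. None of these passed without the 4 high-Rn45s libraries, where Snord49b was not tested.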

How the results depend on the processing

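Counts here are of called genes among the small RNA genes, higher then lower. Except where stated, the share called over all genes under each setting is not given beside them. GCR against mock (12 and 1) gave 8 and 1 by voom, 5 and 0 with only the groups compared and 18 and 1 without the filter. GCR against silicon (12 and 2) gave 7 and 1 by voom, 7 and 1 with only the groups compared, 18 and 5 without the filter, and 1 lower with library totals alone. GCR against gamma (10 and 0) gave 0 higher with only the groups compared, 3 higher with library totals alone, 2 and 1 by voom and 1 lower by DESeq2. All 3 gave 0 and 0 without the libraries over 100000 CPM of Rn45s, where 0 of all 17084 genes were called. Without those over 1000 CPM of Acta1 they gave 0 and 0 among 51 members. There 0 of all 17142 genes were called for GCR against mock or gamma, but 700 higher and 563 lower for GCR against silicon. All 3 also gave 0 and 0 without either kind. Elsewhere, mock + NR against mock gave 2 higher by DESeq2, 1 by voom and 1 without either kind of library (Snora81, 4.23), silicon against gamma 1 higher by DESeq2 and 2 and 2 by voom, gamma against mock 1 higher by voom, and the interaction of silicon with NR 1 lower without either kind (Snora81, -4.76). Library totals alone moved the median of all genes in GCR against mock from -0.06 to -0.24.

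Leaving out 1 library at a time, GCR against mock kept 7 (without GCR replicate 2) to 15 (without GCR replicate 4) higher and 1 lower, GCR against silicon 10 to 15 higher and 1 to 3 lower, and GCR against gamma 0 (without GCR replicate 1) to 14 higher (without GCR replicate 4) and 0 to 1 lower. The shares called over all genes are not given here either, so these counts are not read as particular to the small RNA genes. In GCR against gamma 8 libraries moved the count by over 1.5 times, namely silicon replicate 6, GCR replicates 1, 2, 5 and 6 and gamma replicates 1, 3 and 4. Of named values, 2031 kept direction and side of the threshold with 1 library out, 57 lost the call, 1 gained it and none reversed. Under other settings 486 kept both, 90 lost the call, 9 gained it, 7 moved and 2 reversed: Snord17 in GCR against gamma (-0.011 without the high-Rn45s libraries) and Snora16a in GCR against silicon (-0.072 without either kind). The cause was not tested. No paired analysis was possible because the replicate numbers follow accession order and pair no mice.

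Depth limits these genes: at the smallest total a count of 0 allows up to 0.316 CPM, above the median level of each of the 68 genes that the filter left out.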
